A study of Mus musculus with 4 samples.

Results

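The genes described here are 9 regulators of facial mesenchyme, *Prrx1*, *Prrx2*, *Twist1*, *Twist2*, *Snai1*, *Snai2*, *Six2*, *Eya1* and *Eya2*, chosen by symbol among the 13577 genes of a bulk RNA-Seq table from nasal process (NP) tissues of E11.5 mouse embryos. All 9 were listed, and all 9 passed the filter on low values that left 12462 genes to test. Of the 4 libraries, 2 are titled control and 2 ca-*Acvr1(A11)* mutant. By the study's breeding scheme, controls carry *P0-Cre* alone, and mutants carry *P0-Cre* with 1 copy of a transgene for constitutively active ACVR1, a type I BMP receptor. The *P0-Cre* driver recombines the transgene in neural crest cells, so that ectoderm, placode, brain and blood cells in the dissected tissue are not its intended target. How many embryos, of a mixed genetic background, went into a library is not given in the sources used here.

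The labels contradict each other. The genotype entries name the transgene for the libraries titled control and *P0-Cre* alone for those titled mutant, so that in 0 of the 4 libraries the genotype entry matches the title. The titles were followed, and with the genotype entries in their place each direction given here would turn round. *Acvr1* itself measured 21.5 and 23.1 CPM (a gene's reads scaled to the library total) in controls against 24.1 and 12.6 CPM in ca-*Acvr1(A11)* mutants, values that overlap. Reads of these libraries come from the 3′ end of a transcript, and whether the transgene's RNA shares that end with *Acvr1* is not given, so *Acvr1* does not check the labels.

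Most mesenchyme of the nasal processes comes from cranial neural crest cells (CNCCs), which leave the neural tube, migrate into the face and condense there into cartilage, bone and connective tissue. PRRX1 and PRRX2 are paired-related homeodomain proteins of limb and facial mesenchyme. TWIST1 and TWIST2 are basic helix-loop-helix proteins that act as dimers, and SNAI1 and SNAI2 are zinc finger repressors of epithelial genes such as the cadherin gene *Cdh1*. SIX2 and its homeodomain relatives act together with EYA coactivators, and *Eya1* and *Eya2* are also known from the sensory placodes of the head, the olfactory placode among them. Loss of *Twist1*, of *Eya1* or of *Prrx1* is known to disturb skull or face development in mice.

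The libraries held between 1956831 and 2408827 reads, and 1 read was worth between 0.415 and 0.511 CPM. Each member had between 21 and 543 reads in a library, and none of their values was among those that are not whole reads (43 values of 22 other genes). The members were compared on log2(CPM + 1) with limma, fitted on all 12462 genes, with 2 libraries in each group. An exact permutation test of a single gene cannot give a p under 0.333 in this design, so each p rests on the spread that limma estimates over all genes.

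Of the 9 members, 6 were lower in ca-*Acvr1(A11)* NP tissues at an adjusted p under 0.05 from limma and 0 were higher. Of all genes tested 0.594% were lower, 0.305% higher and 0.899% either. The members were chosen with earlier results of these data known, so the shares over all genes are a scale and not an independent comparison. At an unadjusted p under 0.05 from limma, 7 members were lower (4.12% of all genes) and 0 higher (5.42%). On the recovered reads edgeR called the same 6 lower (0.924% of all genes) and DESeq2 called 4 of them, without the *Twist* genes (0.249% of all genes). The 6 were both *Prrx* genes, both *Twist* genes, *Snai2* and *Six2*. The median log2 fold change of the members was −0.90, and that of all genes was 0.03. For 7 members both mutant libraries lay below both control libraries, as they did for 16.8% of all genes. The exceptions were *Eya1* and *Eya2*, whose groups overlapped. Without control replicate 2 limma called 4 members lower, and without mutant replicate 1 it called 5. Summed over the members, the level was 730 and 970 CPM in controls against 451 and 470 CPM in mutants.

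**Figure D1:**
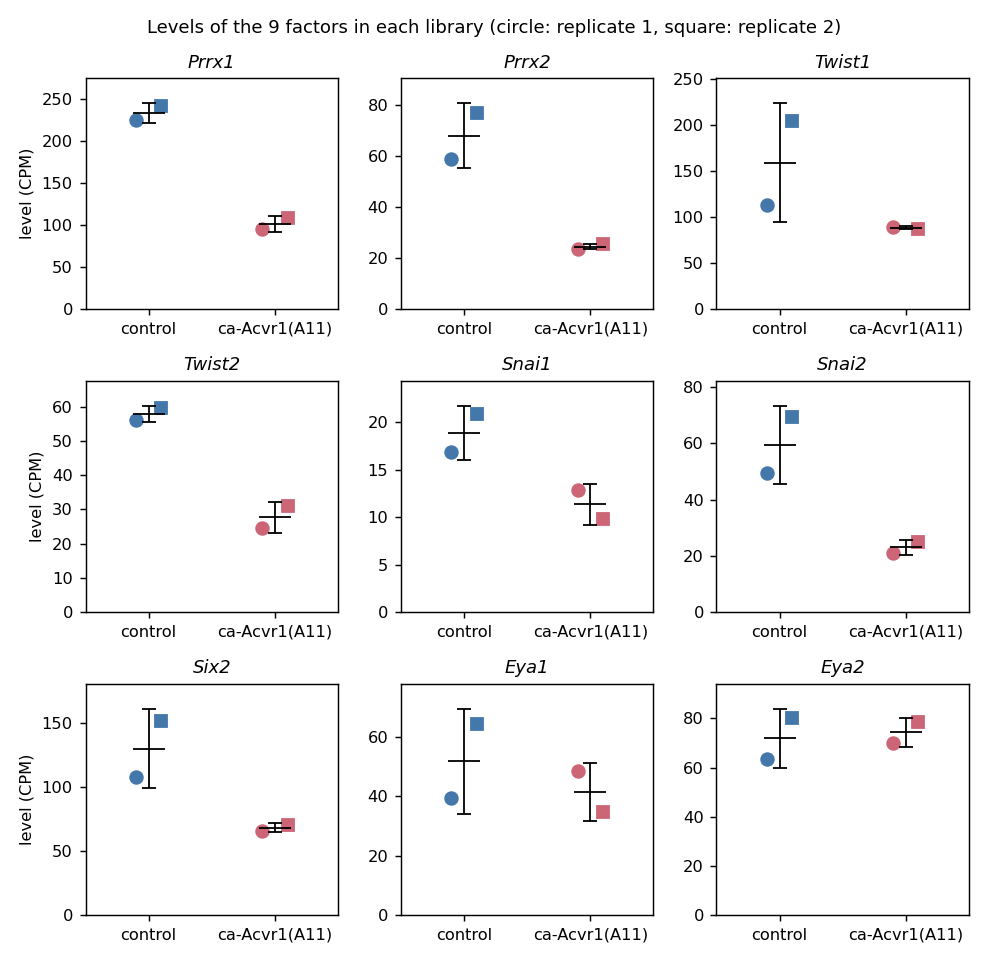
Level of each of the 9 factors in CPM (vertical axes, each starting at 0) in the 2 control libraries (blue) and the 2 ca-*Acvr1(A11)* libraries (red), with group means and SD in black. The red points lie below the blue points in 7 panels, and the groups overlap for *Eya1* and *Eya2*.

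The *Prrx* genes showed the strongest evidence of a change in this set. *Prrx1* (Entrez 18933), on the minus strand of chromosome 1 of GRCm38 from 163245119 to 163313710, measured 224 and 241 CPM (439 and 543 reads) in controls against 94.7 and 108 CPM (228 and 231 reads) in mutants. The replicates of each group lay close together, and the group means, 233 ± 11.8 and 101 ± 9.51 CPM (SD, n = 2 each), were far apart by that measure. Its log2 fold change was −1.19 (standard error 0.15, 95% interval −1.49 to −0.89, adjusted p = 1.50e-05 from limma), the 9th smallest p of all genes tested.

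*Prrx2* (Entrez 20204), on the plus strand of chromosome 2 from 30834972 to 30881251, measured 58.8 and 76.8 CPM in controls against 23.7 and 25.3 CPM in mutants. Its mean fell to 36.1% of the control mean, the lowest percentage among the members, for a log2 difference of −1.42 (standard error 0.20, 95% interval −1.83 to −1.01, adjusted p = 0.000137 from limma). The intervals of the *Prrx* genes overlapped widely. *Prrx1* and *Prrx2* passed the threshold in each of the 16 alternative settings, including those that left out 1 library.

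The *Twist* genes were also lower, with different spread in the control group. *Twist1* (Entrez 22160, chromosome 12, plus strand, 33957671 to 33959829) measured 113 and 205 CPM in controls against 89.7 and 87.5 CPM in mutants. The control libraries were the farther apart, at 159 ± 64.8 CPM against 88.6 ± 1.53 CPM (SD, n = 2 each). The log2 fold change of −0.78 (standard error 0.19, 95% interval −1.17 to −0.39) had an adjusted p of 0.0412 from limma. Without control replicate 2 it was −0.35 (adjusted p = 0.687 from limma), while DESeq2, run on recovered counts, gave an adjusted p of 1.00, so the call for *Twist1* rested on that library and on the test.

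*Twist2* (Entrez 13345, chromosome 1, plus strand, 91801461 to 91848028) measured 56.2 and 59.5 CPM in controls against 24.5 and 30.9 CPM in mutants, and its replicates were close in both groups. Its log2 fold change was −1.05 (standard error 0.20, adjusted p = 0.00554 from limma). DESeq2 gave an adjusted p of 0.0686, and without mutant replicate 1 limma gave 0.0656 for a log2 fold change of −0.88. An antisense gene, *Gm29100*, overlaps an exon of *Twist2* in the annotation. It is not listed in the table, and whether reads were counted by strand is not given in the sources used here.

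*Snai2* (Entrez 20583, chromosome 16, plus strand, 14705852 to 14709385), also called Slug, measured 49.6 and 69.3 CPM in controls against 21.2 and 24.8 CPM in mutants. Both mutant values were under the lower control value, and the log2 fold change was −1.32 (standard error 0.21, 95% interval −1.75 to −0.88, adjusted p = 0.000687 from limma). It passed the threshold in all 16 alternative settings.

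*Snai1* (Entrez 20613, chromosome 2, plus strand, 167538195 to 167542814) had the fewest reads of the members. It measured 16.9 and 20.9 CPM in controls against 12.9 and 9.83 CPM in mutants, on 33, 47, 31 and 21 reads. The groups did not overlap, but the log2 fold change of −0.69 (standard error 0.28) missed the threshold (adjusted p = 0.406 from limma, unadjusted 0.0220). Its 95% interval, from −1.27 to −0.11, overlaps that of *Snai2*, and a difference between the changes of these paralogs was not tested.

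*Six2* (Entrez 20472, chromosome 17, minus strand, 85684277 to 85688274) measured 108 and 152 CPM in controls against 66.0 and 70.7 CPM in mutants. The spread was larger in the control group, at 130 ± 31.1 against 68.3 ± 3.29 CPM (SD, n = 2 each). Its log2 fold change was −0.90 (standard error 0.17, 95% interval −1.25 to −0.55, adjusted p = 0.00476 from limma). Without control replicate 2 it was −0.66 and missed the threshold (adjusted p = 0.0725 from limma).

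The EYA coactivators gave other values. *Eya1* (Entrez 14048, chromosome 1, minus strand, 14168954 to 14310235) measured 39.3 and 64.4 CPM in controls against 48.6 and 34.6 CPM in mutants, for a log2 difference of −0.29 (95% interval −0.74 to 0.16, adjusted p = 0.753 from limma). *Eya2* (Entrez 14049, chromosome 2, plus strand, 165595032 to 165771727) measured 63.4 and 80.4 CPM in controls against 70.2 and 78.6 CPM in mutants. Its log2 fold change was 0.06 with a 95% interval from −0.30 to 0.41 (adjusted p = 0.958 from limma). That interval overlaps the interval of *Snai1* and lies apart from those of the 6 members called lower. The interval of *Eya1* overlaps those of *Twist1*, *Twist2*, *Snai1* and *Six2*. Differences between members were not tested.

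**Figure D2:**
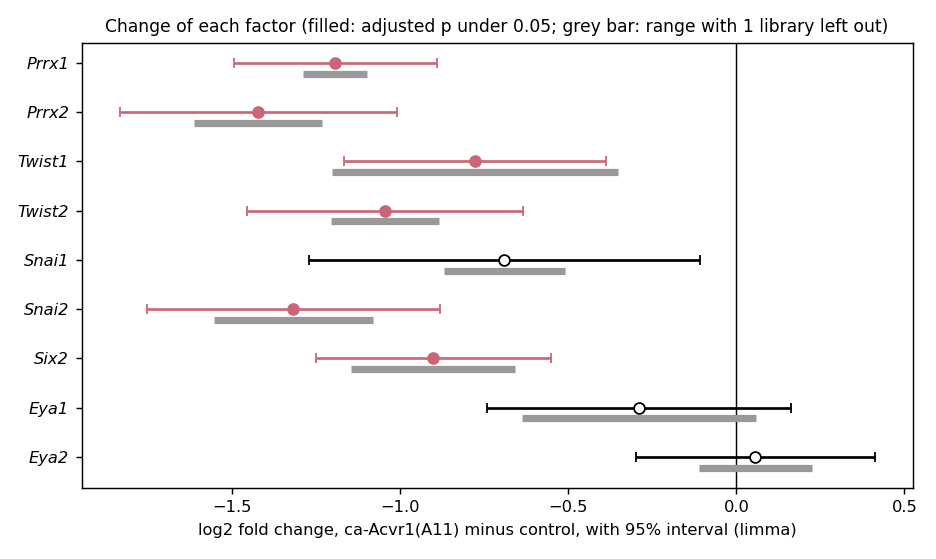
Log2 fold change of each factor (horizontal axis, ca-*Acvr1(A11)* minus control) with its 95% interval from limma, filled where the adjusted p was under 0.05, and the range of estimates with 1 library left out as a grey bar. The 6 filled points lie between −1.42 and −0.78, and *Twist1* has the widest grey bar, from −1.20 to −0.35.

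A share within 1 library does not depend on library scaling, so the members were also compared within paralog pairs. Reads from the 3′ end do not grow in number with transcript length. *Prrx1* held 79.2% and 75.8% of the reads of the *Prrx* pair in controls against 80.0% and 81.1% in mutants. Both mutant shares lay above both control shares, by less than the 95% Clopper-Pearson intervals, which cover counting error only (for mutant replicate 1 from 74.9% to 84.5%).

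*Twist1* held 66.9% and 77.5% of the reads of its pair in control and 78.5% and 73.9% in mutant libraries, so that control replicate 1 stood lowest, with an interval (61.5% to 71.9%) under those of control replicate 2 and mutant replicate 1, and the groups overlapped. *Snai2* held 74.6% and 76.8% of the *Snai* reads in control and 62.2% and 71.6% in mutant libraries. The groups did not overlap, but the intervals did, since the lowest share (51 of 82 reads) has an interval from 50.8% to 72.7%. *Eya2* held 61.7% and 55.5% of the *Eya* reads in control and 59.1% and 69.4% in mutant libraries, with overlapping groups, and the intervals of control replicate 2 (49.9% to 61.0%) and mutant replicate 2 (63.2% to 75.2%) lay apart. In 0 of the 4 pairs did the intervals of both mutant libraries lie apart from those of both control libraries.

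**Figure D3:**
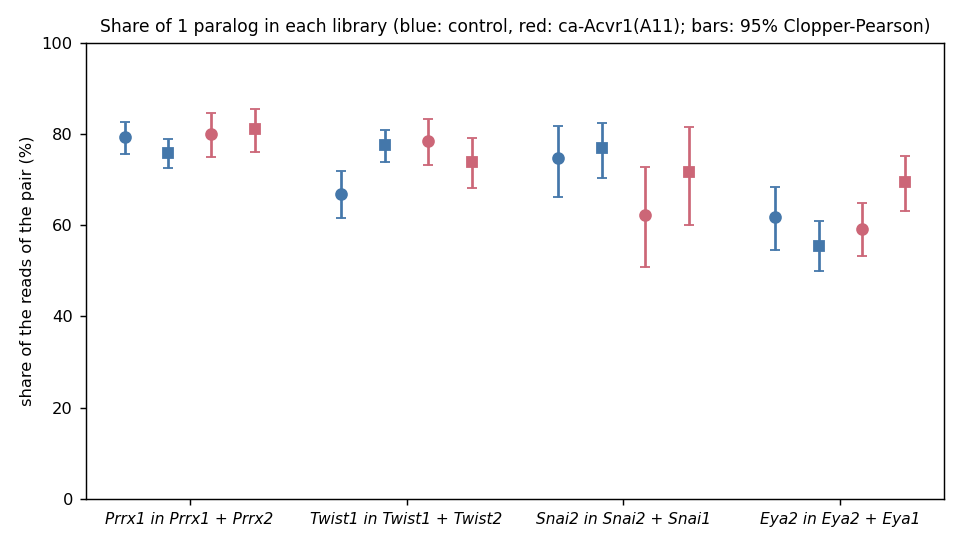
Share of 1 paralog in the reads of its pair (vertical axis, percent) in each library, with 95% Clopper-Pearson intervals that cover counting error only. The *Prrx1* share stays between 75.8% and 81.1%, and no pair has both red intervals apart from both blue ones.

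The gene starts of the members were read from RefSeq's promoter windows on GRCm38.p6, which run from 250 bases before to 50 after a start and were matched for 6 of the 9 members, all but *Snai2*, *Eya1* and *Eya2*. Of the 6, 5 belong to members called lower, and *Snai1* was not called. They are shown so that a reader can see which letters the windows share. The windows of the members that hold a match are printed 5′ to 3′ on the gene's strand, with matches on either strand to the CCAAT box, to the homeodomain core TAATTA and to the E-box CANNTG in capitals. In the order printed they lie at chr1:163313601-163313900 (minus strand), chr12:33957421-33957720 (plus), chr1:91801211-91801510 (plus), chr17:85688205-85688504 (minus) and chr2:167537945-167538244 (plus).
*Prrx1* promoter: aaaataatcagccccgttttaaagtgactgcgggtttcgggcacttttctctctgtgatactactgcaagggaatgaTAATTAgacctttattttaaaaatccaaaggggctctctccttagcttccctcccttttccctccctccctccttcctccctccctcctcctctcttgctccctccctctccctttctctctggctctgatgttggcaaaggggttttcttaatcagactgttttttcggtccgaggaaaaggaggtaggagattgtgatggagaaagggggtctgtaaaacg
*Twist1* promoter: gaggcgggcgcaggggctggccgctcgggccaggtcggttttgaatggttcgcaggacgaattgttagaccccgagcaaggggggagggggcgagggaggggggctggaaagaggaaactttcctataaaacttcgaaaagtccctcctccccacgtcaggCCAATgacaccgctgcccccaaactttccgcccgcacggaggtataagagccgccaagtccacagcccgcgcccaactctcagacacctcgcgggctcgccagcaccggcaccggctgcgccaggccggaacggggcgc
*Twist2* promoter: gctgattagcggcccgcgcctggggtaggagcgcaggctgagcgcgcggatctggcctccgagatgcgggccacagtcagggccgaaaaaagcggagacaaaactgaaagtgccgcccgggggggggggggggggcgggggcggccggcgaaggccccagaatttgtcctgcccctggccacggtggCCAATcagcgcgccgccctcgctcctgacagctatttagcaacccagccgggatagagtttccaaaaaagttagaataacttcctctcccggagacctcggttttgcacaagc
*Six2* promoter: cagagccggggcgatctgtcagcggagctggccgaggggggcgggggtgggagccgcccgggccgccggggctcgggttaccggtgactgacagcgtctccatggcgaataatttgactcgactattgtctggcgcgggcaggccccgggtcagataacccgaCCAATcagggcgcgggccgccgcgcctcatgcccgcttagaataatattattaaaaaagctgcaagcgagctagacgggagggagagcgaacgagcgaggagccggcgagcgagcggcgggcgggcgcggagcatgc
*Snai1* promoter: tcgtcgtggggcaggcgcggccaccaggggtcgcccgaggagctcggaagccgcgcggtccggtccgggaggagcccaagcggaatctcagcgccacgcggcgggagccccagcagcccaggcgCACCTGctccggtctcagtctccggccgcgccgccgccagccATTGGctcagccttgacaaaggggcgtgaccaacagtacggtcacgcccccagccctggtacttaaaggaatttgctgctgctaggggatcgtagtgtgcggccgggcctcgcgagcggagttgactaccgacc

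The E-box CANNTG, the kind of element that TWIST dimers bind and of which CAGGTG is the form bound by SNAI proteins, was in 1 of the 6 windows. It lay in *Snai1*, where its letters are CACCTG, which the other strand reads as CAGGTG, and start 126 bases before the gene's start. Among all 32851 RefSeq windows, 72.3% hold a CANNTG and 20.2% hold CAGGTG among them. The letters TAATTA, a core that homeodomain proteins bind, was in the *Prrx1* window, 173 bases before the start, and is in 5.29% of all windows. A CCAAT box, looked for after these windows had been seen, was in 4 of the 6, in *Twist1*, *Twist2*, *Six2* and *Snai1*, between 63 and 89 bases before the start. It is in 37.4% of all windows. CATCTG, which is a form of CANNTG, and the GC-rich SMAD element GGCGCC were in 0 of the 6 windows, and are in 17.2% and 11.9% of all. The *Prrx2* window held none of these letters. Matches of letters are a description of the windows and not evidence of binding.

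The relatives of *Six2*, *Eya1* and *Eya2* were read from the same fit. Of 9 such genes, 1 was higher (0.305% of all genes), 0 were lower (0.594%), and the median log2 fold change was 0.01. The gene that rose was *Six3*, a regulator of forebrain and eye development, at 474 and 289 CPM in controls against 611 and 601 CPM in mutants (a log2 difference of 0.71 ± 0.16, standard error, with adjusted p = 0.0278 from limma). DESeq2 gave *Six3* an adjusted p of 1.00, and without control replicate 2 its log2 difference was 0.35 (0.372 from limma), while without mutant replicate 1 it was 0.70 (0.0531). *Six6*, a related eye and pituitary factor, measured 21.0 and 16.4 CPM in controls against 30.7 and 31.4 CPM in mutants and did not pass the threshold (a log2 change of 0.71, adjusted p = 0.233 from limma), though it did without control replicate 1 (0.88, adjusted p = 0.0472).

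*Six5* and *Eya4* showed log2 differences of −0.63 and −0.52 (adjusted p = 0.363 and 0.726 from limma). *Six4*, *Eya3* and the corepressor genes *Dach1* and *Dach2* had log2 fold changes between −0.08 and 0.07.

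TWIST proteins pair with E proteins, which are encoded by *Tcf3*, *Tcf4* and *Tcf12*, and with HAND proteins, and ID proteins bind E proteins and keep them from such pairs. *Hand1* and *Hand2* are not listed in the table. Of the other 7 genes 0 passed the threshold in limma, and 0 in edgeR, DESeq2 or limma-voom, while 5 had an unadjusted p under 0.05 from limma (4 lower and 1 higher), where 9.55% of all genes did. With 1 library left out limma called between 0 and 3 of the 7, all of them ID genes. *Tcf3*, *Tcf4* and *Tcf12* showed log2 differences of −0.22, −0.17 and −0.32 (adjusted p = 0.691, 0.764 and 0.425 from limma). In each, both mutant values lay below both control values, as they did for 16.8% of all genes.

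The ID genes, which are known to respond to BMP signaling, were read as partners of this family. *Id1* measured 106 and 202 CPM in controls against 92.6 and 115 CPM in mutants, and *Id2* measured 406 and 714 CPM in controls against 323 and 407 CPM in mutants. The groups overlapped for *Id1* and for *Id2*. In both, control replicate 2 stood far above control replicate 1, as it did in *Twist1*, whose groups did not overlap. *Id1*, *Id2* and *Id3* showed log2 differences of −0.50, −0.57 and −0.33 (adjusted p = 0.385, 0.187 and 0.446 from limma), and *Id4* of 0.46 (adjusted p = 0.192 from limma). These values hung on the control libraries. Without control replicate 1 limma called *Id1*, *Id2* and *Id3* lower (−0.96, −0.98 and −0.51 on the log2 scale, adjusted p = 7.92e-06, 4.37e-09 and 0.0177), and without control replicate 2 they were at −0.03, −0.16 and −0.14 while *Id4* was called higher (0.62, adjusted p = 0.0196). *Id2* was also called lower without mutant replicate 2 (−0.73, adjusted p = 0.0263 from limma).

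A further list held other factors of the epithelial-mesenchymal transition and of early neural crest. Of its 10 genes, 8 were tested, 1 was lower (0.594% of all genes) and 0 were higher (0.305%), with a median log2 fold change of −0.30. The gene that fell was *Foxc2*, a forkhead factor of head mesenchyme, from 39.1 ± 6.19 to 20.2 ± 4.51 CPM (SD, n = 2 each) for a log2 difference of −0.93 (limma's adjusted p = 0.0497), next to the threshold. DESeq2 gave *Foxc2* 0.525, and limma gave 0.307 without control replicate 2 and 0.409 without mutant replicate 1. *Zeb1* and *Zeb2*, zinc finger repressors that act on many of the genes SNAI proteins act on, showed log2 differences of 0.05 and 0.04 (adjusted p = 0.964 and 0.983 from limma), with overlapping groups. These 2 genes were named after their values were seen.

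Among 11 mesenchymal adhesion and motility genes, 1 was lower (0.594% of all genes) and 0 were higher (0.305%), and the median log2 fold change was −0.10. *Cdh11*, a cadherin gene of mesenchyme, measured 149 and 199 CPM in controls against 106 and 87.5 CPM in mutants (a log2 change of −0.83 ± 0.16, standard error, with adjusted p = 0.00687 from limma). It missed the threshold without control replicate 2 (0.0614) and without mutant replicate 2 (0.0886). *Vim*, named after its values were seen, encodes the intermediate filament vimentin and measured 760 and 768 CPM in controls against 924 and 867 CPM in mutants, which did not pass the threshold (a log2 change of 0.23, adjusted p = 0.646 from limma). Summed, these 11 genes measured 1832 and 1861 CPM in controls against 1968 and 1991 CPM in mutants, with *Vim* as the largest term of the sum. Of the 11, 6 had a log2 fold change below 0 and 5 above. At an unadjusted p under 0.05 from limma 2 were lower (4.12% of all genes) and 2 higher (5.42%).

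Of 26 other transcription factors of facial mesenchyme, 25 were tested, 8 were lower and 0 were higher, where 0.594% of all genes were lower. Their median log2 fold change was −0.64, and 5 of the 25 had one above 0. Both mutant values lay below both control values in 17 of the 25 (16.8% of all genes), and above both in 2 (21.9% of all genes). Without control replicate 1 limma called 16 of them, and between 6 and 8 with another library left out. The 4 with the smallest p were *Alx1*, a homeobox gene of the frontonasal mesenchyme, at −1.13, *Pax3* at −1.14, *Tbx15* at −1.92 and *Alx4* at −0.94 on the log2 scale (adjusted p = 8.05e-05, 0.000827, 0.00207 and 0.00391 from limma). The changes of the 6 members called, from −1.42 to −0.78, lay within the range of these 4 genes except for *Twist1* and *Six2*, which changed less.

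**Figure D4:**
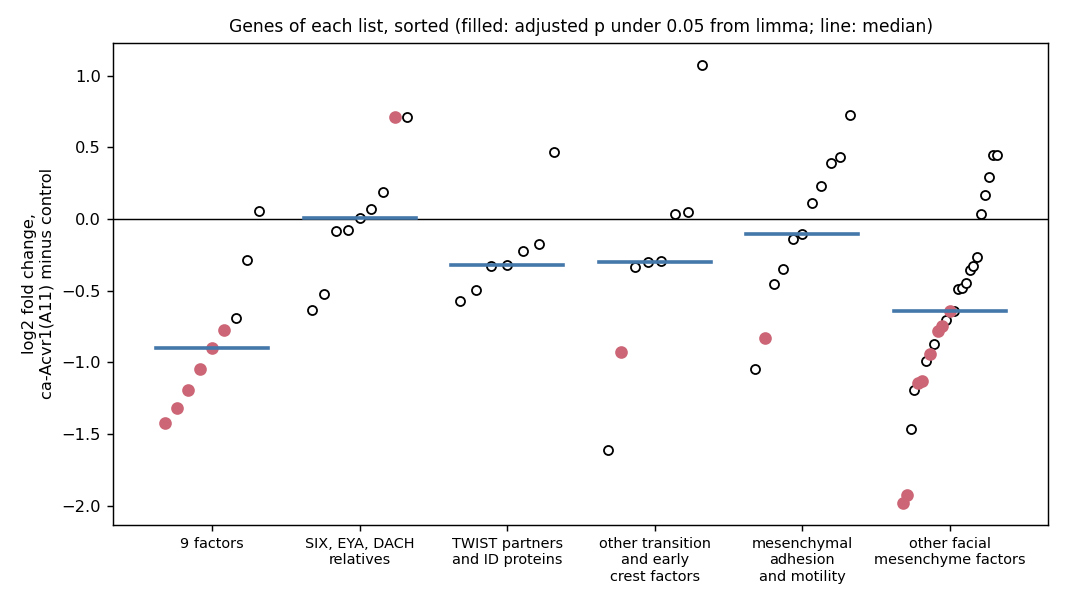
Log2 fold change (vertical axis, ca-*Acvr1(A11)* minus control) of the 9 factors and of the genes of 5 related lists, sorted within each list, with the median as a line and the genes limma called at an adjusted p under 0.05 filled. The 9 factors have a median of −0.90 and the other facial mesenchyme factors of −0.64, while the relatives of *Six2*, *Eya1* and *Eya2* have a median of 0.01.

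The gene whose profile over the 4 libraries was nearest to that of *Prrx1*, the member with the smallest p, was *Pkm*, at a Euclidean distance of 0.133 between centred log2(CPM + 1) profiles among 8353 genes with a mean of at least 10 CPM. Some of its deposited values are not whole reads. *Enpp2* and *Cited1* followed at 0.149 and 0.158, and their values are whole reads. With 4 libraries such a distance mostly says that the genes were lower in the same libraries by a like amount.

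NP tissue holds several cell types, and in bulk RNA fewer cells of a type and less RNA per cell cannot be told apart. Of 10 markers of facial mesenchyme, none of them a member, 8 were lower (0.594% of all genes) and 0 were higher (0.305%). Their sum was 1905 and 2272 CPM in controls against 1069 and 1119 CPM in mutants. Of these, *Pdgfra* and *Pdgfrb* have values that are not whole reads, and 5 of the 10 are also in the list of facial mesenchyme factors. In that list 5 of the 25 genes tested had a log2 fold change above 0. The 10 markers were chosen with earlier results of these data known. Those that fell included 3 collagen genes, *Col1a1*, *Col1a2* and *Col3a1*, with log2 fold changes of −1.17, −1.25 and −0.71. Of these, *Col1a1* and *Col3a1* missed the threshold without control replicate 2 (adjusted p = 0.0799 and 0.268 from limma) and without mutant replicate 1 (0.177 and 0.333). Divided by the sum of the 8 markers with whole-read values, the sum of the members was 0.414 and 0.466 in the control libraries. In the mutant libraries it was 0.435 and 0.436, so that this ratio overlapped between groups. All 10 markers had a log2 fold change below 0, and they were chosen with these data known, so nothing is concluded from that overlap.

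The markers of other cell types moved as follows. Those of epithelium summed to 295 and 277 CPM in controls against 452 and 419 CPM in mutants. Of 14 genes, 2 were higher in limma (0.305% of all genes) and 0 in DESeq2. The 2 were *Cdh1* and *Epcam* (log2 differences of 0.78 and 0.72, adjusted p = 0.0145 and 0.0264 from limma). The neural and olfactory markers summed to 1366 and 1346 CPM in controls against 1721 and 1806 CPM in mutants. Of these 10 genes 0 passed the threshold in limma, edgeR, DESeq2 or limma-voom. At an unadjusted p under 0.05 from limma 5 were higher (5.42% of all genes) and 0 lower (4.12%). The macrophage markers summed to 50.6 and 51.9 CPM in controls against 85.9 and 125 CPM in mutants. Of 8 genes, 2 were higher in limma (0.305% of all genes), *Cx3cr1* and *Mrc1*, and 0 in DESeq2. These calls hung on single libraries, since *Cdh1* missed the threshold without control replicate 2 or mutant replicate 1, *Epcam* without either mutant library, *Cx3cr1* without mutant replicate 2 and *Mrc1* without any library but control replicate 2 (adjusted p between 0.0736 and 0.307 from limma).

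In the endothelial, erythroid, Schwann precursor and skeletal muscle lists 0 genes passed the threshold in limma, edgeR, DESeq2 or limma-voom. An unadjusted p under 0.05 from limma was found for 1 gene, of the Schwann precursor list, and for 9.55% of all genes. The endothelial markers summed to between 163 and 176 CPM in each library. The muscle markers summed to between 4.88 and 7.06 CPM, and the muscle factors *Myod1* and *Myog* are not listed in the table. The erythroid markers summed to between 6710 and 8483 CPM and those of Schwann precursors to between 87.9 and 130 CPM, with overlapping groups in both. Most of the Schwann precursor sum was *Fabp7*, at 69.0 to 122 CPM. The gene of that list with an unadjusted p under 0.05 was *Sox10*, named after its values were seen. It measured 9.71 and 7.99 CPM in controls against 2.08 and 3.28 CPM in mutants. Its log2 fold change was −1.44 (adjusted p = 0.0926 from limma), on 19, 18, 5 and 7 reads. The part of these shifts in the lower levels of the members was not tested.

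**Figure D5:**
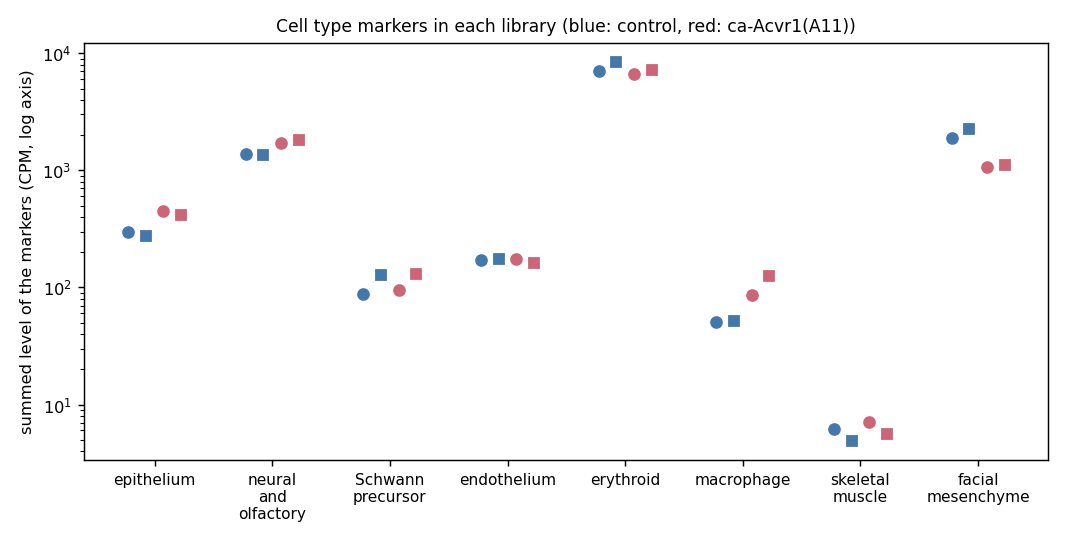
Summed level of the markers of 8 cell types in each library (vertical axis, CPM, on a log scale), with control in blue and ca-*Acvr1(A11)* in red (circle, replicate 1; square, replicate 2). The red points lie below the blue points for facial mesenchyme and above them for epithelium, neural and olfactory cells and macrophages.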

How the data were processed

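RNA of E11.5 NP tissues was made into QuantSeq 3′ libraries, 2 per group by title. The authors deposited CPM values, reads per gene scaled to the library total. The submitters' processing notes name STAR, featureCounts 1.6.4, DESeq2 and mm10, with no role. The step between values gave each library's total, within 0.02 reads, and 99.92% of values were whole reads.

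limma 3.58.1 (R 4.3.3) was run on log2(CPM + 1) for genes with a mean above 1 CPM, with its trend option and p-values adjusted over all of them by Benjamini and Hochberg, and was tested on simulated data. A fold change on this scale understates that of genes with few reads. The 16 alternatives were other pseudocounts, filters and scalings, edgeR 4.0.16, DESeq2 1.42.0 and limma-voom on recovered reads, the values that are not whole reads replaced or left out, a replicate block, and each library left out.

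The members and lists were chosen with earlier results of these data known. Members, relatives of *Six2* and *Eya1* and TWIST partners were named in full, other lists by up to 4 called genes with the smallest p, marker lists by the genes called, and 3 genes by their distance to *Prrx1*. Values of some genes under this rule are not reported here. Coordinates are from GENCODE M21. Nothing states that libraries are from separate embryos, so p-values measure only the spread between these libraries, which may be technical.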

Additional observations from a re-analysis of the deposited data

How the results depend on the processing

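With 2 libraries a group, each estimate rests on few values. Among all genes limma called 38 higher and 74 lower, DESeq2 8 and 31, and the fit with the replicate number as a block 97 and 132. Deviations of libraries with the same number correlated at 0.0671 over genes, so the numbers were not taken as pairs. The block changed the call of no member, and *Id2* was called lower under it (adjusted p = 0.00897 from limma). With 1 library left out the count called higher ran from 31 to 240 and that called lower from 54 to 225. *Prrx1*, *Prrx2* and *Snai2* passed in all 16 alternatives, *Six2* in 15, *Twist2* in 14 and *Twist1* in 12. Besides the settings named above, *Twist1* missed the threshold with a pseudocount of 0.1 CPM (adjusted p = 0.0875 from limma) and with at least 10 reads in every library (0.0523). The cause of these losses was not tested.

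*Eya3*, near 0 in every setting, changed sign to −0.025 with TMM, −0.020 with RLE and −0.015 with upper-quartile scaling, −0.012 in edgeR, −0.020 in DESeq2 and −0.013 in limma-voom. With 1 library left out, signs also changed for genes that missed the threshold. The log2 fold change ran from −0.64 to 0.059 for *Eya1*, −0.11 to 0.23 for *Eya2*, −0.77 to 0.11 for *Acvr1*, −0.42 to 0.28 for *Six4*, −0.073 to 0.085 for *Eya3*, −0.37 to 0.20 for *Dach1* and −0.16 to 0.29 for *Dach2*.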
